A study of Saccharomyces cerevisiae with 12 samples.

Results

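Of the 7126 genes in the count table, 56 are described here: a chosen list of expressed genes with an intron that encode neither ribosomal proteins nor splicing factors. A further 114 tested genes with an annotated intron, other than ribosomal protein genes, are not on this list. The 56 members were listed by systematic name and not by a rule on how they moved, although earlier results of these data were known. All 56 passed the filter on low counts. By role they comprise 4 genes of the actin cytoskeleton, 4 of tubulin and its folding factor prefoldin, 9 of vesicle traffic, 2 of the vacuolar proton pump (V-ATPase), 5 of ubiquitin and related conjugation, 6 of mRNA export, cap binding and decay, 3 of tRNA modification and RNase P, 8 of transcription and chromatin, 6 kinase, phosphatase and mitosis genes, 8 of metabolism, mitochondria and the cell wall, and PSP2, which encodes an RNA-binding protein.

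Ribodepleted total RNA of budding yeast in the BY background was sequenced from wild-type cells, from cells without the intron of MMS2 (the mms2 intron deletion) and from cells without the intron of YSF3 (the ysf3 intron deletion). Each genotype was represented by 2 strains. Log-phase and 48 h cultures of each strain were taken, in synthetic medium with 2% glucose and supplements of histidine, leucine, uracil and lysine, which gives 6 groups of 2 libraries and library totals from 4871513 to 16581925 counts. The study asked how loss of an intron bears on the repression of genes in starved cells. Strain 1 and strain 2 of a group are its replicates, pairs of values are given in that order, and p-values measure only the spread between these libraries.

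Wild-type strain 1 stood apart by mating type. Genes specific to alpha cells summed to 2727 CPM (counts scaled by the library total) in its log-phase library and 136 at 48 h, against 22.4 to 48.1 in the other 10 libraries. Genes specific to a cells summed to 15.7 and 12.7 CPM in that strain and to at least 88.1 elsewhere. By these genes each wild-type group joins an alpha-like library with an a-like one, whereas the deletion libraries were all a-like. Counts of calls against the wild type are given with and without wild-type strain 1. Leaving out both libraries of that strain leaves 1 wild-type library in each phase. In log phase small nucleolar RNA was 2.64 and 3.21% of wild-type counts and 4.16 to 6.49% in the deletions, and the U2 RNA took 2.86 and 3.57% against 1.35 to 1.63%. The part of mating type and of RNA composition in the differences from the wild type was not tested, nor was that of RNA composition in the phase changes.

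MMS2, a ubiquitin-conjugating enzyme variant gene, had 16.5 and 15.9 CPM in wild-type cells against 22.1 and 20.8 in the mms2 intron deletion in log phase, a log2 fold change of 0.40 ± 0.17 (edgeR, adjusted p of 0.0891). YSF3, of the SF3b splicing complex, had 2.25 and 1.62 CPM in wild-type cells against 4.06 and 2.57 in the ysf3 intron deletion, a log2 fold change of 0.77 ± 0.31 (edgeR, adjusted p of 0.0856). Without wild-type strain 1 these values were 0.44 and 1.05, with adjusted p of 0.17 and 0.104. In each case the libraries did not overlap and the difference did not pass the test. Of the 6068 genes tested, 2205 were higher and 2272 lower without overlap in the mms2 intron deletion in log phase. In the ysf3 intron deletion these counts were 1790 and 2048, so lack of overlap was common among all genes. Counts per gene do not tell spliced from unspliced transcripts, so they hold no check of the deletions and no measure of splicing. The ± after a log2 fold change is its size over the root of the test's F statistic, an approximate error only. CPM of single genes, unlike the sums above, are scaled by the library total and the trimmed mean of M-values.

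Few yeast genes have introns, and most of the spliced mRNA of a growing cell comes from ribosomal protein genes. Outside the ribosome, introns sit in genes of the cytoskeleton, secretion, protein modification and RNA metabolism, usually close to the start codon. The spliceosome reads the 5′ splice site, a branch site whose last adenosine attacks that splice site, and the 3′ splice site. For some of these genes splicing is a point of control: SUS1 transcripts keep or lose either intron, SRC1 is spliced from overlapping 5′ splice sites into alternative proteins, PTC7 makes a membrane protein when its intron is kept, and YRA1 limits its own level through its intron.

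The introns below are those deleted in the study, those with regulated or unusual splicing signals, and those of the genes that the later comparisons turn on. Sequences are from RefSeq (assembly R64, the sequence of sacCer3), written 5′ to 3′ on the gene's strand. Capitals mark the first 6 bases (the 5′ splice site), the branch site, and the last 3 bases (the 3′ splice site). The branch site is the stretch that best matches TACTAAC, and no branch point was mapped.
MMS2 intron, chrVII:346809-346893, minus strand: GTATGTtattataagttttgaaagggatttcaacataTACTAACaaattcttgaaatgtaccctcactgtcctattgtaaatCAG
YSF3 intron, chrXIV:366036-366157, plus strand: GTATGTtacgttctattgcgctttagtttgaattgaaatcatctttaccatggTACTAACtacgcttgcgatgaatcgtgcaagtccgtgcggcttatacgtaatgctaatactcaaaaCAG
SUS1 intron 1, chrII:462210-462289, plus strand: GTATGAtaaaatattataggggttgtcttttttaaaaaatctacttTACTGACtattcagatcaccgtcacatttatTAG
SUS1 intron 2, chrII:462430-462499, plus strand: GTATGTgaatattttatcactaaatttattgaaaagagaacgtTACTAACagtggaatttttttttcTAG
SRC1 intron, chrXIII:211445-211570, plus strand: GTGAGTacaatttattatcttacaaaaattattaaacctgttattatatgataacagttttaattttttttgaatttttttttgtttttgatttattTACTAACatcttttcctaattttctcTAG
PTC7 intron, chrVIII:251156-251248, plus strand: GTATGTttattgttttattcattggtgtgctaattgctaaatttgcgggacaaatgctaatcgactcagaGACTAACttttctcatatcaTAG
UBC4 intron, chrII:407028-407122, minus strand: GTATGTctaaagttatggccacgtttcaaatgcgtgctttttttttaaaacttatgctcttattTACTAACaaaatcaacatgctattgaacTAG
UBC5 intron, chrIV:569634-569723, minus strand: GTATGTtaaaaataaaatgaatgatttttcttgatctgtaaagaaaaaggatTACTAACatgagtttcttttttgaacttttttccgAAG
TUB1 intron, chrXIII:99260-99375, minus strand: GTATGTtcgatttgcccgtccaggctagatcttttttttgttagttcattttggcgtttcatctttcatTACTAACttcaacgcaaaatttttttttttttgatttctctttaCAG
SAR1 intron, chrXVI:138726-138864, plus strand: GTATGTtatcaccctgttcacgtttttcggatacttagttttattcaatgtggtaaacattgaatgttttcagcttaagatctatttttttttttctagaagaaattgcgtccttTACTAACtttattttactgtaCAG
COF1 intron, chrXII:40222-40400, minus strand: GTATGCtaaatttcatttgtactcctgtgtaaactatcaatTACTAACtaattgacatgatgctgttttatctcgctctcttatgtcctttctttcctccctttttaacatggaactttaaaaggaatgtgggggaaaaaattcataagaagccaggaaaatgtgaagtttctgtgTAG
The deleted MMS2 intron has 85 nt and the deleted YSF3 intron 122 nt, and both hold GTATGT and TACTAAC, the most frequent 5′ splice site and branch site. SUS1 intron 1 departs from these at both places, with GTATGA and TACTGAC, while SUS1 intron 2 has both. SRC1 has GTGAGT, PTC7 has GACTAAC and COF1 has GTATGC.

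For longer introns the first 20 bases and a window that ends 9 bases after the branch site are shown, since ACT1 and IMD4 carry results below and YRA1, GCR1 and PSP2 have signals that differ.
ACT1 intron start, of chrVI:54378-54686, minus strand: GTATGTtctagcgcttgcac
ACT1 branch site window: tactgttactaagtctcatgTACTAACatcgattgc
IMD4 intron start, of chrXIII:163309-163716, minus strand: GTATGTtataatagacaaaa
IMD4 branch site window: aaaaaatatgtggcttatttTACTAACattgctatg
YRA1 intron start, of chrIV:1236843-1237608, plus strand: GTATGTtaatacgtgaaatg
YRA1 branch site window: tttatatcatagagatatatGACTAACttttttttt
GCR1 intron start, of chrXVI:412262-413012, plus strand: GTATGAtcataacacgcatt
GCR1 branch site window: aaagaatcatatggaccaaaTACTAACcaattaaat
PSP2 intron start, of chrXIII:236592-236953, plus strand: GTATGTgcctcggtttttct
PSP2 branch site window: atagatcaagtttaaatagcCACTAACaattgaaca
YRA1 shares the branch sequence GACTAAC with PTC7, GCR1 shares GTATGA with SUS1 intron 1, and PSP2 has CACTAAC as the nearest match to TACTAAC. By this match the PSP2 branch adenosine lies 165 nt from the end of the intron and that of YRA1 20 nt.

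The annotation holds 58 coding-region introns in 55 members and none in MTR2. SUS1, TAD3 and VMA9 have 2 each. Their median length was 99 nt, from 56 nt in TAD3 intron 2 to 1002 nt in DBP2, and 12 were over 200 nt. In ribosomal protein genes the median was 408 nt, and 90 of 91 introns were over 200 nt. GTATGT opened 48 of the 58 introns (82.8%), against 73.0% of all 281 annotated introns, and TACTAAC was found in 45 (77.6%), against 82.6% of all and 93.4% of those in ribosomal protein genes. The members' introns were therefore short like other introns outside the ribosome, whose median was 97 nt, and varied more at the branch site than those of ribosomal protein genes. Coding sequence before the intron had a median of 31.5 nt. The intron of IMD4 holds the small nucleolar RNA gene snR54, which was listed at 0 counts in the 12 libraries.

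Levels between genes were compared as CPM per kb of coding sequence. In the wild type in log phase the highest was UBC4, which encodes a ubiquitin-conjugating enzyme, at 998 ± 39.97 CPM per kb (SD, n = 2). VMA10, a stalk subunit of the V-ATPase, followed at 783 ± 36.4, then DBP2, an RNA helicase gene, at 693. ACT1, the actin gene, was at 522 and YRA1, an mRNA export adaptor gene, at 518. The lowest were UBC5, the paralog of UBC4, at 2.40 CPM per kb, and GOT1, a Golgi transport gene, at 6.83, so members spanned a wide range around a median of 83.6. Together the members made up 0.823 ± 0.0385% of wild-type counts in log phase and 0.547 ± 0.00859% at 48 h. In the mms2 intron deletion these shares were 0.819 and 0.483%, and in the ysf3 intron deletion 0.859 and 0.519%.

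The authors' deposited FPKM put the members in another order. In the wild type in log phase PSP2 had the highest FPKM, 38549, followed by GCR1 with 32064, although their levels were 81.1 and 102 CPM per kb. The gene length that each FPKM implies was obtained by dividing count by FPKM, scaled so that genes without an intron have their coding length. For each of the 55 members with an intron this length was that of the leftmost coding exon on the chromosome, which is the exon before the intron for a gene on the plus strand. PSP2 has a coding length of 1782 nt and an implied length of 4 nt, its exon before the intron, and GCR1 a coding length of 2358 nt and an implied length of 8 nt. Of 31 members on the plus strand 2 had an implied length within 1.25-fold of the coding length, and of 24 on the minus strand 21 did. Across all 253 genes with an intron and at least 50 counts the implied length was within 1.25-fold of the leftmost exon, and for 5168 of 5215 genes without an intron it was within 1.25-fold of the coding length. Levels per length in this text therefore come from the counts, and the factor is the same in every library, so it does not enter a comparison of libraries.

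**Figure D1:**
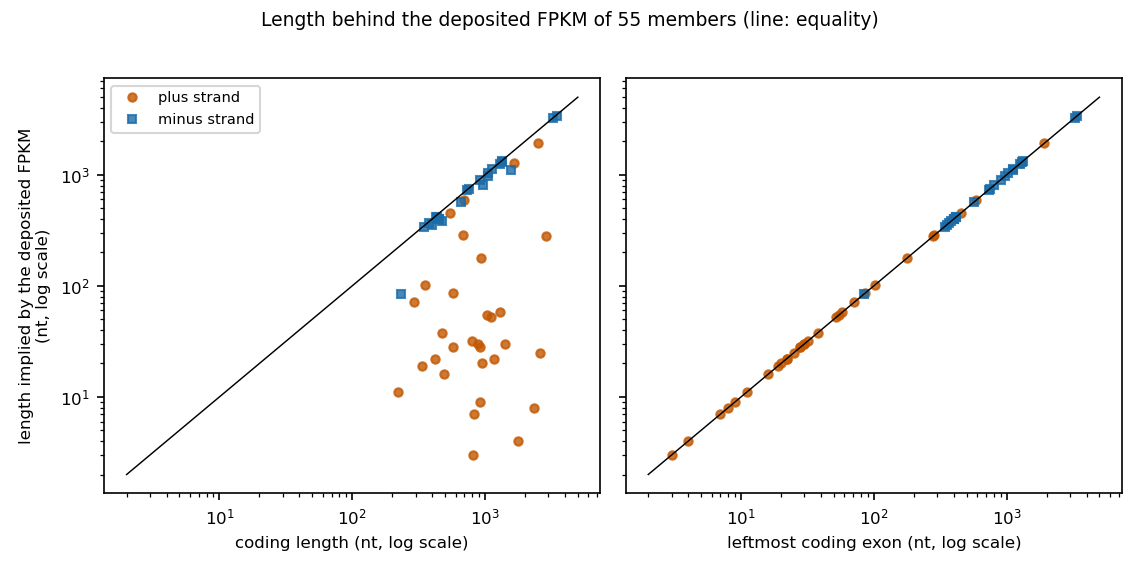
Length implied by the deposited FPKM (nt, log scale) for 55 members, against the coding length (left) and the leftmost coding exon on the chromosome (right), both on log scales. Circles are genes on the plus strand, squares genes on the minus strand, and the line marks equality: on the right every point lies on the line, whereas on the left most plus-strand genes lie far below it.

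After 48 h most members fell. In the wild type 35 of 56 were lower at 48 h than in log phase and 7 were higher (edgeR, adjusted p under 0.05), where 34.3% of the 6068 genes tested were lower and 32.8% higher (67.1% in either direction). The mms2 intron deletion had 30 lower and 6 higher, beside 30.7 and 33.4% of all genes (64.1% in all), and the ysf3 intron deletion 35 lower and 8 higher, beside 32.9 and 33.9% (66.8% in all). The median log2 fold changes of the members were -0.71, -0.60 and -0.76 in that order, and those of all genes -0.01, 0.06 and 0.03. Ribosomal protein genes with an intron had a median of -2.72 in the wild type, with 89 of 89 lower. The 114 other tested genes with an annotated intron had a median of 0.28, with 38 higher and 27 lower, so the members lay between these classes. The genotypes do not share libraries here: 27 members fell in all 3, which is 27 of 35 in the wild type, of 30 in the mms2 intron deletion and of 35 in the ysf3 intron deletion. IWR1, MOB1, NYV1, SRC1, TFC3 and UBC5 rose in all 3, and DCN1, GLC7, HNT2, MCM21, NCB2, NMD2, RFA2, SNC1, SUS1 and TAD3 passed in none. Calls shared by all 3 genotypes were not counted over all genes, so this overlap is not read as a trait of the members. In RNA from whole cultures, fewer cells of a kind and less RNA per cell cannot be told apart.

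Of the 42 wild-type calls 31 held when any of the 4 libraries was left out, and those lost without some library were APE2, ARP2, GOT1, KIN28, MTR2, PFY1, PHO85, POP8, PSP2, UBC5 and VMA9. In the mms2 intron deletion 31 of 36 held, with COF1, ERV1, GOT1, MTR2 and POP8 lost in some, and in the ysf3 intron deletion 34 of 43, with APE2, ARP2, BET1, BOS1, PFY1, PHO85, PSP2, SEC17 and UBC4 lost in some. With strain as a block, which pairs the phases, the calls of APE2, GOT1, KIN28, PFY1, PHO85 and POP8 were lost in the wild type and COF1 gained, POP8 was lost in the mms2 intron deletion, and APE2, BOS1 and SEC17 were lost in the ysf3 intron deletion. Without wild-type strain 1, 32 of the 42 wild-type calls held.

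**Figure D2:**
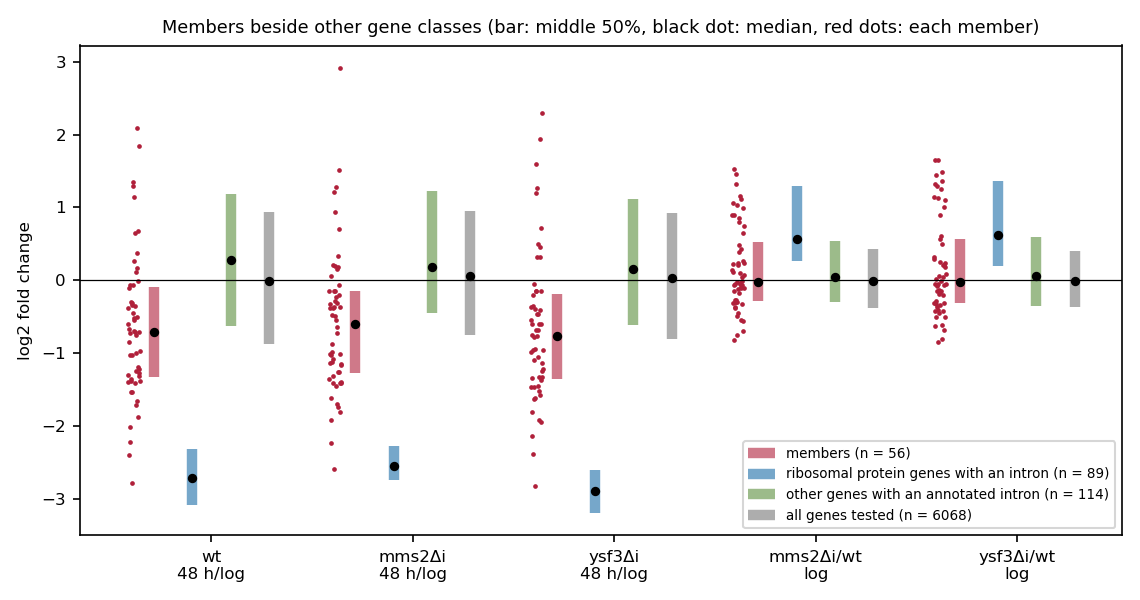
Log2 fold changes (y axis) in 5 comparisons (x axis) for the members (red points, each a member), ribosomal protein genes with an intron, other genes with an annotated intron and all genes tested; bars span the middle 50% and black dots are medians. At 48 h against log phase in the wild type the medians were -0.71 for the members, -2.72 for ribosomal protein genes and 0.28 for other genes with an intron, and in log phase, deletions against wild type, the members' medians were -0.02 and -0.03.

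**Figure D3:**
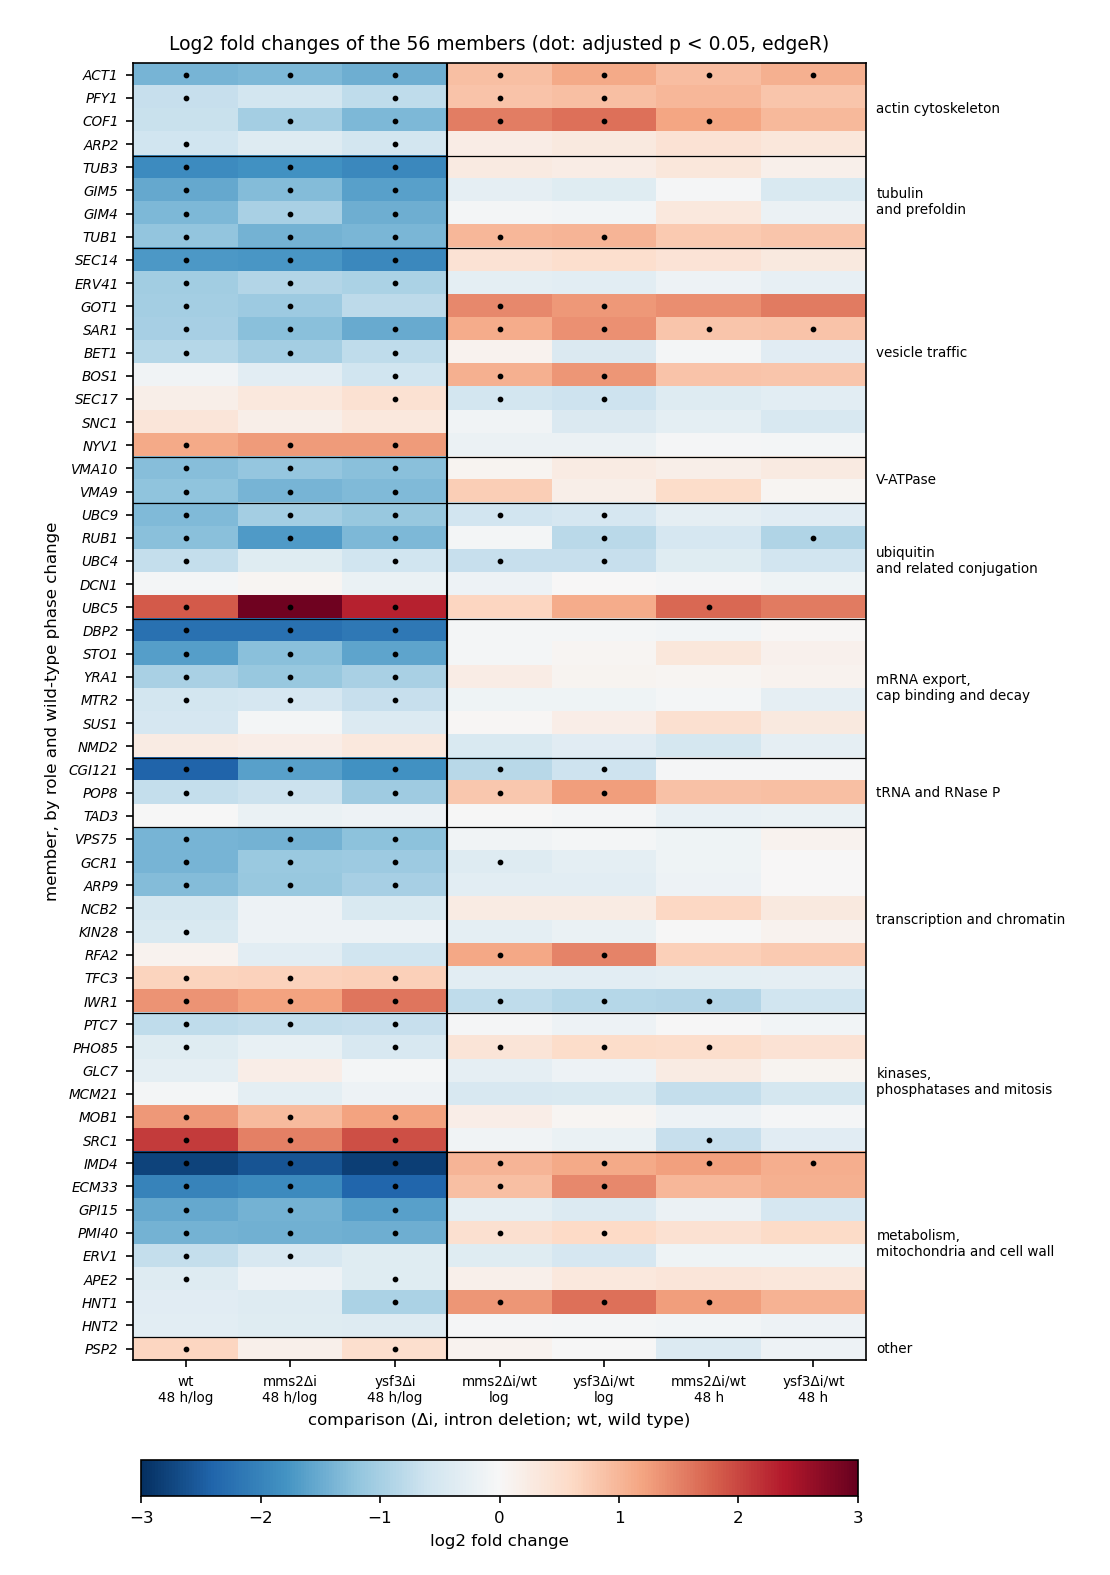
Log2 fold changes of the 56 members (rows, by role and then by their wild-type phase change) in 7 comparisons (columns), with a dot where the adjusted p was under 0.05. The 3 phase columns on the left are mostly blue, with NYV1, UBC5, IWR1, MOB1 and SRC1 red in each, and the 4 columns against the wild type on the right are of mixed sign.

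Of the 4 actin cytoskeleton members ACT1 was lower at 48 h in all 3 genotypes, and COF1, PFY1 and ARP2 each passed in 2 of them. ACT1 (YFL039C) had 634 and 544 CPM in the wild type in log phase and 186 and 261 at 48 h, 1113 and 1073 against 383 and 472 in the mms2 intron deletion, and 1372 and 1229 against 488 and 455 in the ysf3 intron deletion. The phases did not overlap in any genotype, and ACT1 fell by 1.40 ± 0.19, 1.35 ± 0.19 and 1.46 ± 0.19 on the log2 scale (edgeR, adjusted p of 6.6e-05, 8.9e-05 and 4.7e-05). Lack of overlap between phases was common: of the 6068 genes tested, 2518 were higher and 2579 lower in this way in the wild type. These counts were 2607 and 2441 in the mms2 intron deletion and 2588 and 2474 in the ysf3 intron deletion. COF1 (YLL050C) encodes cofilin, which severs actin filaments. In wild-type cells it had 29.7 and 19.9 CPM against 14.4 and 16.4, and its log2 fold change of -0.68 missed the threshold (adjusted p of 0.0525). In the deletions COF1 fell by 1.03 and 1.35, and the call in the mms2 intron deletion was lost without strain 1 at 48 h or strain 2 in log phase (log2 fold changes from -1.31 to -0.69 over the libraries left out). PFY1, the profilin gene, was at -0.70, -0.55 and -0.77 and ARP2, of the branching complex, at -0.60, -0.38 and -0.55, each past the test in the wild type and the ysf3 intron deletion only, and each call was lost without some library. Of 20 partner genes of the actin cytoskeleton, 9 were lower and 3 higher in the wild type, with a median of -0.19.

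Tubulin and prefoldin genes fell in each genotype, 4 of 4 members. TUB3 (YML124C), known as the minor alpha-tubulin gene of yeast, had 208 and 191 CPM in log phase and 57.7 and 51.0 at 48 h in the wild type. TUB3 fell by 1.88 ± 0.15 (edgeR, adjusted p of 1.5e-06). TUB1 (YML085C), known as the major alpha-tubulin gene, had 109 and 75.2 CPM against 33.8 and 46.0 and fell by 1.19 ± 0.22 (edgeR, adjusted p of 0.00069). Despite these names, TUB3 had more CPM than TUB1 in each wild-type library. All TUB1 and TUB3 libraries at 48 h were below all log-phase libraries of the same genotype. GIM5 and GIM4, subunits of prefoldin, fell by 1.54 and 1.36 in the wild type. Partner genes fell as well, 9 of 12 with 2 higher, and TUB2, the beta-tubulin gene, which has no intron, fell by 1.54 ± 0.14.

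Vesicle traffic genes split. SEC14, a phosphatidylinositol transfer protein gene, fell by 1.71, 1.74 and 1.93 in the wild type, the mms2 and the ysf3 intron deletion. SAR1 (YPL218W), which encodes the GTPase that starts COPII coats, had 84.9 and 68.2 CPM against 31.8 and 44.2 in the wild type, 159 and 171 against 63.4 and 73.9 in the mms2 intron deletion, and 210 and 185 against 69.3 and 69.0 in the ysf3 intron deletion. SAR1 fell by 1.00 ± 0.18, 1.26 ± 0.18 and 1.52 ± 0.18, with no overlap between phases. ERV41 and BET1, of transport between the endoplasmic reticulum and the Golgi, fell by 1.03 and 0.84 in the wild type. NYV1, a SNARE of the vacuole, went the other way, from 49.3 and 43.0 CPM to 97 and 107, a log2 fold change of 1.15 ± 0.18 (adjusted p of 0.00019), and of 1.28 and 1.27 in the deletions. SEC17, which helps to recycle SNAREs, passed in the ysf3 intron deletion alone, at 0.46, and lost that call without strain 1 in either phase or without strain 2 in log phase, and with strain as a block. SNC1, an exocytic SNARE gene, was at 0.37, 0.18 and 0.32 and BOS1 at -0.11, -0.33 and -0.60, the last with an adjusted p of 0.044. GOT1 had 3.90 and 1.80 CPM against 1.51 and 1.32 in the wild type, and its log2 fold change of -1.03 ran from -1.51 to -0.38 over the libraries left out. Of 24 partner genes 10 were lower and 6 higher.

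Both V-ATPase members fell. VMA10 had 279 and 261 CPM in log phase and 97.7 and 124 at 48 h in the wild type, a fall of 1.28 ± 0.20, with falls of 1.17 and 1.25 in the deletions. VMA9, a small membrane subunit, had 7.47 and 4.49 CPM against 2.65 and 2.52 and fell by 1.21 ± 0.31, a call that was lost without wild-type strain 1 in log phase (-0.81) or strain 2 at 48 h (-1.17). In the deletions VMA9 fell by 1.40 and 1.33. Among 15 other V-ATPase subunits and assembly factors 12 were lower, with a median of -1.32, beside -1.25 for the pair of members.

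In ubiquitin and related conjugation UBC4 was called lower in the wild type and the ysf3 intron deletion, and UBC5 was called higher in all 3 genotypes. UBC4 (YBR082C) had 434 and 459 CPM in log phase and 274 and 273 at 48 h in the wild type and fell by 0.71 ± 0.15 (adjusted p of 0.002). UBC4 did not pass in the mms2 intron deletion, at -0.37 ± 0.15 (adjusted p of 0.0571), and its fall of 0.61 ± 0.15 in the ysf3 intron deletion did not pass without strain 2 at 48 h (-0.42). UBC5 (YDR059C), known as the stationary-phase member of the pair, had 1.19 and 0.958 CPM in log phase and 1.32 and 5.60 at 48 h in the wild type, so that the rise came from strain 2. The UBC5 log2 fold change of 1.85 ± 0.53 was 0.30 without wild-type strain 2 at 48 h, with an adjusted p of 0.67. In the mms2 intron deletion UBC5 went from 1.64 and 1.73 CPM to 9.87 and 15.3, a log2 fold change of 2.92 ± 0.50. In the ysf3 intron deletion it went from 1.67 and 2.91 to 11.4 and 11.5, a log2 fold change of 2.30 ± 0.47, and both of these calls held in every alternative. UBC9, the SUMO-conjugating enzyme gene, fell by 1.32, 1.02 and 1.14. RUB1, which encodes a ubiquitin-like modifier, fell by 1.25, 1.69 and 1.34, while DCN1, which promotes attachment of Rub1 to cullins, was at -0.06, 0.06 and -0.20. Of 17 partner genes 3 were lower and 5 higher.

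Among mRNA genes DBP2, STO1, YRA1 and MTR2 fell in each genotype, and NMD2 and SUS1 did not pass in any. DBP2 (YNL112W) had 1192 and 1081 CPM in log phase and 223 and 262 at 48 h in the wild type and fell by 2.23 ± 0.31, 2.24 ± 0.31 and 2.14 ± 0.31 in the 3 genotypes. STO1, the large cap-binding subunit gene, fell by 1.66, 1.27 and 1.58. YRA1 (YDR381W) had 362 and 344 CPM against 180 and 178 in the wild type and fell by 0.98 ± 0.18 (adjusted p of 0.00062), with falls of 1.15 and 0.96 in the deletions. MTR2, of the export receptor, fell by 0.55, 0.49 and 0.68, with the first and second lost without some library. NMD2, a factor of nonsense-mediated decay, was at 288 and 349 CPM against 403 and 359, and its log2 fold change was 0.26 ± 0.23 (adjusted p of 0.34). SUS1, which acts in both histone deubiquitination and mRNA export, had 7.67 and 7.36 CPM against 3.21 and 6.80, and its log2 fold change was -0.50 ± 0.32 (adjusted p of 0.19). Of 18 partner genes of mRNA export, cap binding and decay 10 were lower and 3 higher.

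CGI121 (YML036W), of the KEOPS complex that modifies tRNA, went from 33.3 and 35.7 CPM to 6.43 and 6.61 in the wild type, a fall of 2.40 ± 0.22 (adjusted p of 3.9e-06), and fell by 1.62 and 1.81 in the deletions. POP8, an RNase P subunit gene, fell by 0.71, 0.64 and 1.06, with the first and second calls lost without some library. TAD3, which edits adenosine in tRNA, stayed between 18.6 and 23.5 CPM in all libraries and did not pass in any genotype (-0.01, -0.21 and -0.15). TAD2, the gene of its partner subunit, fell by 1.43 ± 0.19 in the wild type.

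Transcription and chromatin members went both ways. GCR1 (YPL075W), the activator of glycolytic genes, had 225 and 257 CPM in log phase and 88.3 and 95.7 at 48 h in the wild type and fell by 1.39 ± 0.13, 1.12 ± 0.13 and 1.09 ± 0.13 in the 3 genotypes. VPS75, a histone chaperone gene, fell by 1.39, 1.41 and 1.23, and ARP9, of chromatin remodellers, by 1.31, 1.13 and 0.99. IWR1 (YDL115C), which brings RNA polymerase II into the nucleus, rose from 65.9 and 73.7 CPM to 202 and 154 in wild-type cells, a log2 fold change of 1.35 ± 0.20 (adjusted p of 0.00014), and by 1.22 and 1.60 in the deletions. TFC3, a subunit gene of the RNA polymerase III factor TFIIIC, rose by 0.67 ± 0.15, 0.70 ± 0.16 and 0.71 ± 0.15. KIN28, the kinase gene of TFIIH, was at -0.45, -0.15 and -0.15, with its wild-type call lost without any 1 of the 4 libraries. NCB2, of a repressor of transcription, and RFA2, of the single-stranded DNA binding complex, did not pass. Of 17 partner genes 4 were lower and 5 higher.

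Among kinase, phosphatase and mitosis genes SRC1 rose most. SRC1 (YML034W), which encodes an inner nuclear membrane protein, had 156 and 172 CPM in log phase and 756 and 641 at 48 h in wild-type cells, a log2 fold change of 2.09 ± 0.16 (adjusted p of 9.0e-07), with 1.52 ± 0.16 and 1.94 ± 0.16 in the deletions. MOB1, an activator of the mitotic exit kinase, rose by 1.30, 0.94 and 1.20. PTC7 (YHR076W), a phosphatase gene, had 61.8 and 56.1 CPM against 34.2 and 35.6 and fell by 0.75 ± 0.15, 0.72 ± 0.15 and 0.69 ± 0.15. GLC7 (YER133W), the catalytic subunit gene of protein phosphatase 1, had 258 and 233 CPM against 196 and 202 in the wild type and 213 and 193 against 198 and 271 in the mms2 intron deletion. GLC7 did not pass in any genotype, at -0.30 ± 0.15, 0.21 ± 0.15 and -0.05 ± 0.15. PHO85, a cyclin-dependent kinase gene, was at -0.35, -0.22 and -0.47, with the first and last past the test but lost without some library, and the kinetochore gene MCM21 did not pass. Of 18 partner genes 7 were lower and 8 higher.

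Of the 8 members of metabolism, mitochondria and the cell wall, IMD4, ECM33, GPI15 and PMI40 fell in all 3 genotypes. IMD4 (YML056C), an IMP dehydrogenase gene of guanine nucleotide synthesis, had 198 and 149 CPM in log phase and 20.2 and 29.2 at 48 h in the wild type and fell by 2.79 ± 0.20, 2.60 ± 0.19 and 2.83 ± 0.20 in the 3 genotypes, the lowest fold change of any member in each. Its copies without an annotated intron fell too: in wild-type cells the log2 fold change was -2.99 for IMD3, 84.1% identical, and -3.76 for IMD2, 80.3% identical. ECM33, a cell wall protein gene, had 207 and 128 CPM against 29.3 and 52.3 and fell by 2.01 ± 0.32. GPI15, of GPI anchor synthesis, fell by 1.53 and PMI40, which makes mannose phosphate, by 1.42. ERV1, of mitochondrial protein import, was at -0.72, -0.48 and -0.35, APE2, an aminopeptidase gene, at -0.38, -0.16 and -0.36, HNT1, a nucleotide-binding protein gene, at -0.33, -0.39 and -0.94, and HNT2 at -0.31, -0.36 and -0.39. Of these, HNT1 passed in the ysf3 intron deletion, APE2 there and in the wild type, and ERV1 in the wild type and the mms2 intron deletion. PSP2 was the other gene that rose in the wild type, by 0.65 ± 0.20, and in the ysf3 intron deletion, by 0.50, and both calls were lost without some library.

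**Figure D4:**
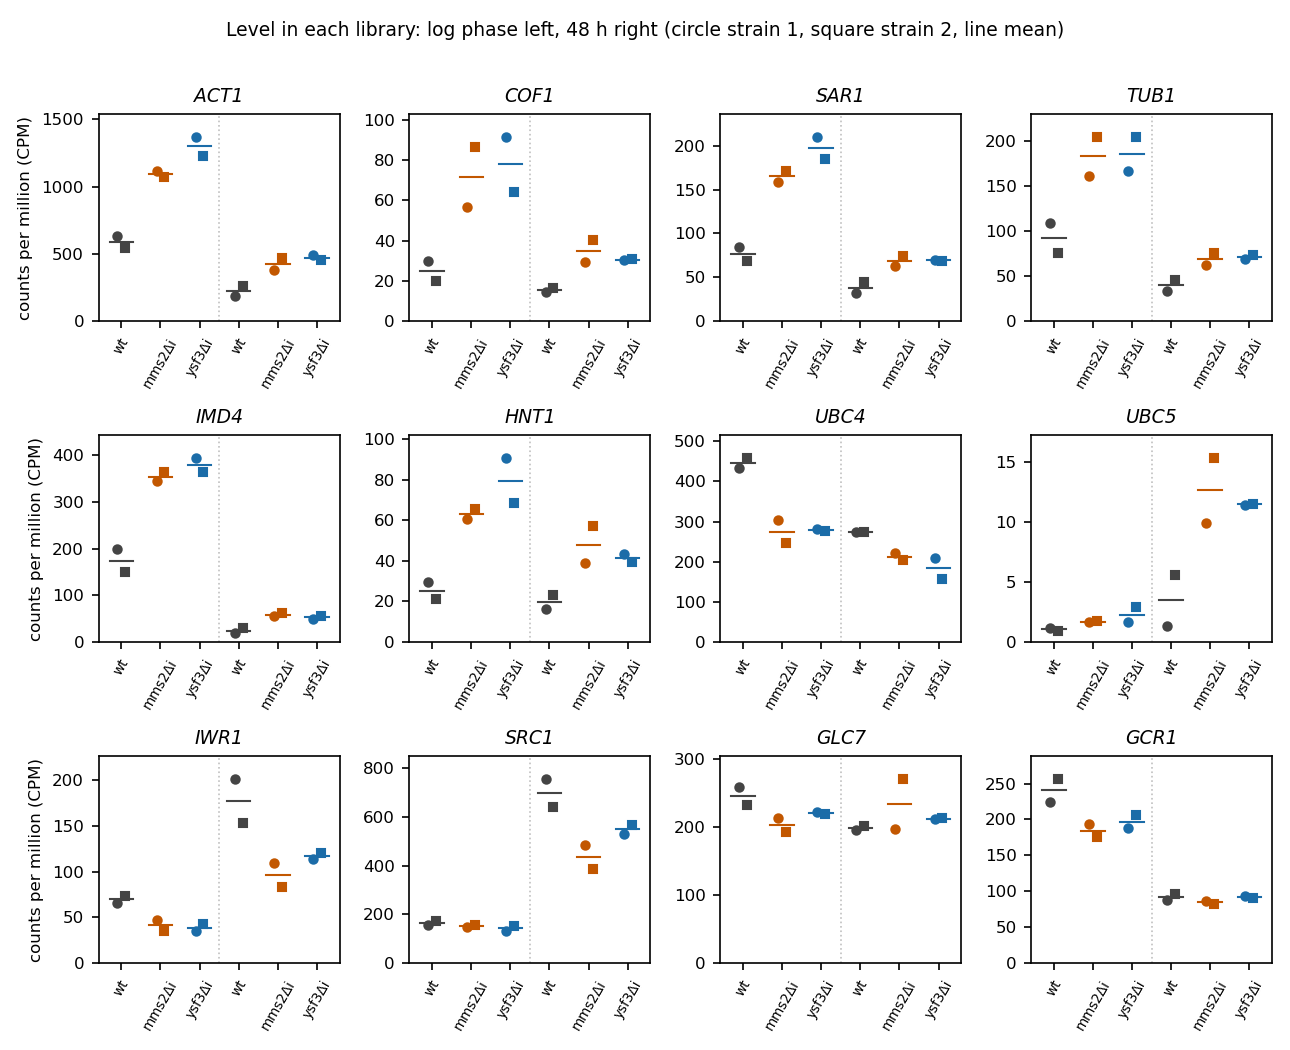
CPM of 12 members (y axis, from 0) in each library by genotype (x axis), with log phase left and 48 h right of the dotted line; circles are strain 1, squares strain 2 and lines the group mean. In log phase ACT1, COF1, SAR1, TUB1, IMD4 and HNT1 lie higher in all 4 deletion libraries than in both wild-type libraries, and UBC4 and IWR1 lie lower. SRC1 is high in all libraries at 48 h, and UBC5 in all of them but wild-type strain 1, which is at 1.32 CPM.

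In log phase 14 members, ACT1, BOS1, COF1, ECM33, GOT1, HNT1, IMD4, PFY1, PHO85, PMI40, POP8, RFA2, SAR1 and TUB1, were higher than in the wild type in each intron deletion. The mms2 intron deletion had 14 members higher than the wild type and 6 lower (35.7% of members), where 13.9% of all genes were higher and 13.3% lower (27.2% in all). The ysf3 intron deletion had 14 higher and 6 lower, where 13.7% of all genes were higher and 13.5% lower (27.2% in all). Both comparisons use the same wild-type libraries, so their values are only set side by side. Genes higher in both deletions were not counted over all genes, so the 14 shared calls are not read as a trait of the members. The members' medians were -0.02 and -0.03, next to -0.01 and -0.01 for all genes, so the medians of the members and of all genes lay close together. Ribosomal protein genes with an intron had medians of 0.57 and 0.62.

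These counts rest on few libraries. In the mms2 intron deletion 0 of the 20 calls held without wild-type strain 2 in log phase or without strain 2 of the deletion, 12 without strain 1 of the deletion and 18 without wild-type strain 1 in log phase. In the ysf3 intron deletion 1 call, SAR1, held without wild-type strain 2 in log phase, 17 without wild-type strain 1, 17 without strain 1 of the deletion and 15 without strain 2. When wild-type strain 1 was dropped from both phases, only a-like libraries were left, with 1 wild-type library in each phase, that of strain 2. In each of these fits every called member kept its sign. Scaling by library totals in place of the trimmed mean of M-values moved the median of all genes to -0.15 and -0.18 and the split of calls to 9 higher and 14 lower in the mms2 intron deletion and 13 higher and 15 lower in the ysf3 intron deletion. Under that scaling 9.92% of all genes were higher and 22.3% lower in the mms2 intron deletion, and 10.1 and 23.8% in the ysf3 intron deletion. Across the members the log2 fold change had Pearson's r of 0.32 and 0.26 with the GC content of the coding sequence (n = 56 genes that share libraries), and across 5650 protein-coding genes 0.25 and 0.20. The part of GC content in these differences was not tested.

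Of the actin genes 3 of 4 were higher in log phase in both deletions, beside 2 of 20 partner genes higher in each. The ACT1 libraries given above did not overlap between the deletions and the wild type, with log2 fold changes of 0.89 ± 0.19 in the mms2 intron deletion (adjusted p of 0.013) and 1.14 ± 0.19 in the ysf3 intron deletion (adjusted p of 0.0056). COF1 had 29.7 and 19.9 CPM in wild-type cells, 56.7 and 86.7 in the mms2 intron deletion and 91.7 and 64.2 in the ysf3 intron deletion, and rose by 1.53 ± 0.27 and 1.65 ± 0.27 (adjusted p of 0.012 and 0.0056). PFY1 rose by 0.85 and 0.90, and ARP2 was at 0.22 and 0.29 with adjusted p of 0.37 and 0.25. Actin and its regulators cofilin and profilin thus rose together while the Arp2 subunit did not pass. Without wild-type strain 1 the values of ACT1 were 1.02 and 1.27 and those of COF1 1.86 and 1.99. In the same fits TUB1 was at 1.30 and 1.31, SAR1 at 1.29 and 1.55, IMD4 at 1.26 and 1.37 and HNT1 at 1.58 and 1.92.

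TUB1 went from 109 and 75.2 CPM in the wild type to 161 and 205 in the mms2 intron deletion and 166 and 204 in the ysf3 intron deletion, log2 fold changes of 0.99 ± 0.22 and 1.01 ± 0.22 (adjusted p of 0.014 and 0.0097). TUB3 was at 0.26 ± 0.15 and 0.21 ± 0.15 and did not pass (adjusted p of 0.20 and 0.29). TUB2, without an intron, was higher by 0.60 ± 0.13 and 0.81 ± 0.13. The prefoldin genes GIM4 and GIM5 were at -0.06 and -0.27 in the mms2 intron deletion and -0.08 and -0.37 in the ysf3 intron deletion and did not pass.

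Of vesicle traffic genes 3 of 9 were higher and 1 lower in both deletions, where 3 of 24 partner genes were higher. SAR1 rose by 1.11 ± 0.17 and 1.37 ± 0.18 (adjusted p of 0.012 and 0.0048), with 84.9 and 68.2 CPM in the wild type and at least 159 in the 4 deletion libraries. BOS1, a SNARE gene of transport to the Golgi, rose by 1.07 and 1.32, and GOT1 by 1.45 and 1.30. SEC17 fell, from 141 and 175 CPM to 110 and 105 in the mms2 intron deletion and 101 and 106 in the ysf3 intron deletion, by 0.55 ± 0.14 and 0.61 ± 0.14. So SAR1, BOS1 and GOT1 were higher and SEC17 lower within the same role.

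In ubiquitin conjugation UBC4 fell by 0.70 ± 0.15 and 0.68 ± 0.15 (adjusted p of 0.014 and 0.012), from 434 and 459 CPM in the wild type to 304 and 245 in the mms2 intron deletion and 282 and 275 in the ysf3 intron deletion. UBC9 fell by 0.56 and 0.51. RUB1 passed in the ysf3 intron deletion, at -0.81 ± 0.17, with 96 and 72.1 CPM in the wild type and 51.5 and 44.6 in that deletion, and was at -0.06 in the mms2 intron deletion. The difference between the deletions was tested directly and did not pass for any member (below). UBC5 was at 0.65 and 1.10 with adjusted p of 0.40 and 0.15. Of 17 partner genes 1 was higher in each deletion and 2 and 1 were lower.

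Of the other roles, IMD4 went from 198 and 149 CPM in the wild type to 345 and 364 in the mms2 intron deletion and 395 and 365 in the ysf3 intron deletion, log2 fold changes of 1.03 ± 0.18 and 1.13 ± 0.18 (adjusted p of 0.012 and 0.0056). Its copies IMD3 and IMD2 did not pass, at 0.34 and 0.47 in the mms2 and 0.20 and 0.37 in the ysf3 intron deletion. HNT1 went from 29.4 and 21.3 CPM to 60.8 and 65.5 and to 90.8 and 68.2, log2 fold changes of 1.32 ± 0.24 and 1.65 ± 0.24. Libraries of both genes were higher in each deletion strain than in each wild-type strain. ECM33 rose by 0.89 and 1.44, RFA2 by 1.15 and 1.49, POP8 by 0.81 and 1.25, PMI40 by 0.48 and 0.60 and PHO85 by 0.39 and 0.56. PST1, a paralog of ECM33 with no intron, rose by 1.31 and 1.69. CGI121 fell by 0.82 and 0.62, and IWR1 by 0.76 ± 0.20 and 0.85 ± 0.20, from 65.9 and 73.7 CPM to 47.1 and 35.3 and to 34.9 and 42.8. GCR1 passed in the mms2 intron deletion, at -0.39 ± 0.12, and was at -0.29 ± 0.12 in the ysf3 intron deletion with an adjusted p of 0.10. YRA1 (0.23 and 0.08), NMD2 (-0.46 and -0.34), VMA9 (0.74 and 0.18) and VMA10 (0.07 and 0.24) did not pass in either deletion.

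At 48 h fewer members differed from the wild type. The mms2 intron deletion had 7 higher and 2 lower (16.1% of members), beside 8.54 and 2.09% of all genes (10.6% in all), and the ysf3 intron deletion 3 higher and 1 lower (7.14%), beside 2.49 and 0.28% (2.77% in all). ACT1 (0.93 ± 0.19 and 1.08 ± 0.19), IMD4 (1.22 ± 0.19 and 1.08 ± 0.19) and SAR1 (0.84 ± 0.18 and 0.85 ± 0.18) were higher in each deletion, again against shared wild-type libraries. COF1 at 1.18, HNT1 at 1.27, PHO85 at 0.52 and UBC5 at 1.72 were higher in the mms2 intron deletion, and at 0.98, 1.04, 0.44 and 1.56 did not pass in the ysf3 intron deletion. IWR1 had 202 and 154 CPM in wild-type cells against 110 and 83.0 in the mms2 intron deletion, a fall of 0.89 ± 0.20. SRC1 had 756 and 641 CPM against 485 and 388, a fall of 0.68 ± 0.15 (adjusted p of 0.026). RUB1 was lower in the ysf3 intron deletion, with 38.2 and 32.8 CPM against 18.1 and 19.8, by 0.89 ± 0.18. All calls at 48 h were lost without wild-type strain 1 at 48 h and without both its libraries, those of the mms2 intron deletion also without its strain 2, and those of the ysf3 intron deletion without either of its strains. Scaled by library totals the calls were 5 higher and 3 lower in the mms2 intron deletion (5.19 and 4.60% of all genes) and 2 higher and 1 lower in the ysf3 intron deletion (1.57 and 0.577% of all genes), and every called member kept its sign in these fits.

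The phase change itself was not shown to differ between genotypes for any member. The difference of phase changes from the wild type passed for 0 of 56 members in either deletion by edgeR and by DESeq2, and edgeR called 0% of all genes. At an unadjusted p under 0.05 (edgeR) there were 3 members in the mms2 and 0 in the ysf3 intron deletion. Beside these, 568 and 284 of the 6068 genes tested were under 0.05. The count of members was 0 in both deletions also without wild-type strain 1. The deletions set against each other gave 0 members by both tools in log phase and at 48 h, with 2 and 1 members at an unadjusted p under 0.05. In these comparisons 232 and 374 of the 6068 genes tested had an unadjusted p under 0.05.

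The balance within pairs of paralogs differed between groups of libraries. TUB1 over TUB3, as CPM per kb, was 0.521 and 0.393 in wild-type log phase, 0.667 and 0.864 in the mms2 intron deletion and 0.657 and 0.971 in the ysf3 intron deletion. At 48 h the ratio was 0.584 and 0.898 in wild-type cells, 1.02 and 0.998 in the mms2 and 1.09 and 1.29 in the ysf3 intron deletion. The ratio was higher in every deletion library than in both wild-type libraries of the same phase, and higher at 48 h than in log phase in every strain. Of the counts of UBC4 plus UBC5, UBC5 gave 0.274 and 0.208% in wild-type log phase and 0.480 and 2.01% at 48 h. In the mms2 intron deletion the share went from 0.537 and 0.700% to 4.28 and 6.95%, and in the ysf3 intron deletion from 0.590 and 1.05% to 5.17 and 6.80%. These ratios do not depend on library scaling, were given no test with 2 libraries a group, and rest for UBC5 on 16 to 43 counts a library in log phase and on 7 counts in wild-type strain 1 at 48 h. TUB1 and TUB3 are 81.3% identical over their coding sequences and UBC4 and UBC5 77.4%, and TUB3 overlaps an annotated antisense RNA by 120 nt. How reads shared by such pairs were counted is not given in the sources used here.

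**Figure D5:**
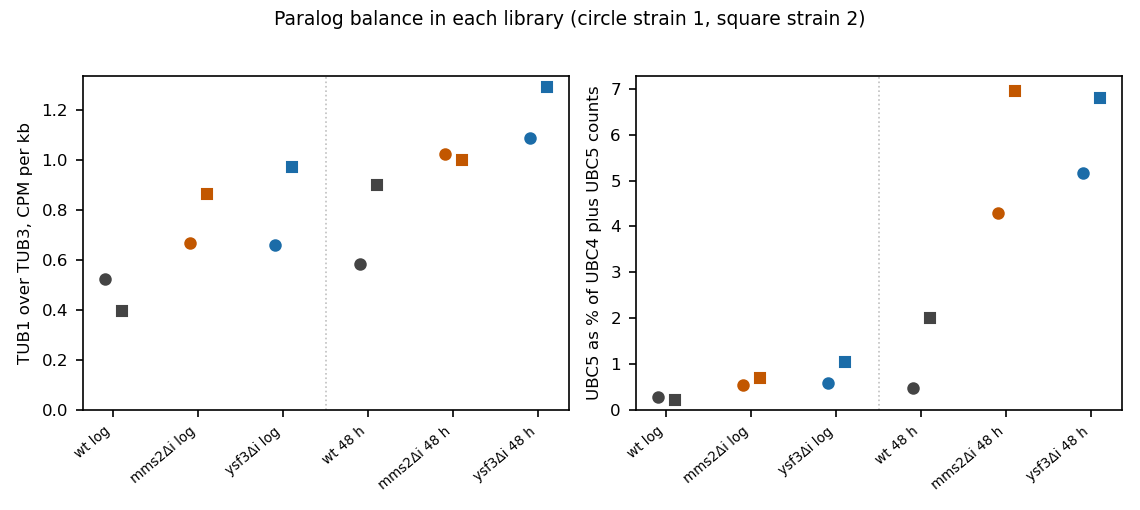
TUB1 over TUB3 as CPM per kb (left) and UBC5 as a percentage of UBC4 plus UBC5 counts (right), both from 0, in each library by genotype and phase; circles are strain 1 and squares strain 2. The TUB1 to TUB3 ratio runs from 0.393 to 1.29 and the UBC5 share from 0.208 to 6.95%, with all 4 deletion libraries at 48 h at 4.28% or more.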

How the data were processed

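RNA-seq counts per gene were used as deposited by the authors, as raw read counts of 12 libraries. Per the submitters' processing notes, Bowtie2, HTSeq, DESeq2 and the sacCer3 build were used, with versions and settings not given in the sources used here. The authors' deposited FPKM were used only to obtain the gene length each implies. The authors' deposited tables of comparisons hold log2 fold changes and adjusted p-values, those under 0.001, and served only as values named as theirs.

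The 6 groups of 2 libraries were fitted together in edgeR 4.0.16 (R 4.3.3; filterByExpr, trimmed mean of M-values scaling, quasi-likelihood test, 6 residual degrees of freedom), with Benjamini-Hochberg adjustment over the 6068 genes tested and calls at an adjusted p under 0.05. Of 7126 genes 1058 were not tested. CPM of single genes are counts scaled by the library total over the genes tested and by the trimmed mean of M-values. The sums of mating-type genes use the library total alone. Levels between genes are divided by coding length from RefSeq R64. Alternatives were other scalings, no filter, DESeq2 1.42.0, only the libraries compared, replicate blocks, and leaving out each library or wild-type strain 1.

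The labels give the same strain in both phases, which pairs the phases within a genotype, although residuals of the same strain correlated by -0.16, 0.06 and 0.04 in the wild type, the mms2 and the ysf3 intron deletion. Precision is limited by 2 libraries a group and by totals from 4871513 to 16581925 counts.

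The members, their roles and 143 partner genes of the same machines, of which 142 were tested, were chosen with earlier results of these data known. Named were a fixed set of members, the 3 members of each role with the smallest adjusted p in each direction in the wild-type phase comparison, and up to 8 called members without overlap at each end of each comparison. Other members are named where a count of calls or losses lists them, after their values were seen.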

Additional observations from a re-analysis of the deposited data

How the results depend on the processing

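In the phase comparisons the counts of called members stayed within 1.5 times under every alternative run, and in all 7 comparisons between phases or with the wild type each called member kept its sign. Without 1 library the wild type had 34 to 39 calls, the mms2 intron deletion 33 to 36 and the ysf3 intron deletion 35 to 45. Strain as a replicate block gave 37, 35 and 40 calls, and beyond those named with the phase results this block changed no other call. Against the wild type, leaving out 1 library gave 0 to 19 calls in log phase and 0 to 13 at 48 h for the mms2 intron deletion, and 1 to 19 and 0 to 5 for the ysf3 intron deletion. At 48 h the mms2 intron deletion had 4 calls with only the libraries compared, 15 by DESeq2 and 0 without wild-type strain 1. The ysf3 intron deletion had 11 calls in log phase with only the libraries compared, and at 48 h 14 with only the libraries compared, 13 by DESeq2 and 0 without wild-type strain 1. The cause of these changes was not tested, other than that fewer libraries enter some fits. Shares of all genes called in these fits are not given here, so the counts are not read as changes of the members alone. Across genotypes strains share only a number, and strain number as a replicate block gave 16, 8, 18 and 0 calls for the mms2 intron deletion in log phase and at 48 h and the ysf3 intron deletion in the same order. Among values of single members under an alternative, 2957 kept direction and side of the threshold, 194 lost a call, 30 gained one, and the sign of a call never turned. Depth limits UBC5 and GOT1, which had 7 and 8 counts in wild-type strain 1 at 48 h, and YSF3, which had 13 there.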

Other observations

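Intron signals and length, set beside the wild-type phase change, gave the following description. Of the 34 members with GTATGT and TACTAAC in every intron 24 were lower and 2 higher at 48 h and the median on the log2 scale was -0.85, beside 34.3% of all genes lower and 32.8% higher. Of the 21 members with another 5′ splice site or branch site, SUS1, SRC1, PTC7 and COF1 among them, 10 were lower and 5 higher, with a median of -0.68. Members with an intron over 200 nt, such as ACT1, DBP2, GCR1 and IMD4, were lower in 10 of 12 cases and higher in 1, with a median of -1.39, and the 43 with shorter introns were lower in 24 and higher in 6, with a median of -0.68. Pearson's r between log10 intron length and the phase change was -0.32, and Spearman's rho was -0.21, over 55 genes that share libraries.

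ECM33 and PST1 moved apart between phases. PST1, which like ECM33 encodes a GPI-anchored cell wall protein, was higher at 48 h in the wild type by 1.41 ± 0.25 on the log2 scale (edgeR, adjusted p of 0.000531), where ECM33 was lower by 2.01, and both were higher in log phase in each intron deletion. At 48 h PST1 was higher in the mms2 and the ysf3 intron deletion by 1.44 and 1.37 (edgeR, adjusted p of 0.0143 and 0.0373), and ECM33, at 0.99 and 1.07, did not pass (adjusted p of 0.0668 and 0.0895). Between SNC1 and SNC2, a pair of exocytic SNARE genes, SNC2 was higher at 48 h in the wild type by 0.88 ± 0.23 and SNC1 did not pass.

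The authors' deposited tables, limited to an adjusted p under 0.001, hold 28, 30 and 29 members in the phase comparisons of the wild type, the mms2 and the ysf3 intron deletion. These tables hold 2865, 2690 and 2629 genes in all. In log phase against the wild type they hold 8 members for each deletion, among 547 genes for the mms2 and 309 for the ysf3 intron deletion. At 48 h they hold 2 and 4 members for the mms2 and the ysf3 intron deletion, among 179 and 224 genes. Of the 4 members in the last of these tables edgeR called 2, and in the other 6 it called all. Each of these members had the same sign in the edgeR fit as in the authors' deposited table. Both come from the same libraries, so the shared sign is no independent check.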
